A study of Mus musculus with 15 samples.

Results

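Pcp2, Pcp4, Ppp1r17 and Dner are 4 genes used as markers of Purkinje cells, the inhibitory output neurons of the cerebellar cortex. They were picked by name among the 19500 genes with a single symbol on the array, and each was read by 1 probe set, so no choice between probe sets was needed. The 15 arrays hold RNA bound to tagged ribosomes from the cerebellum of Tg(Pcp2-L10a-Egfp) mice at P0, P7, P15, P21 and P56 (days after birth), with 3 arrays per age. All mice carried the same transgene, in which the Pcp2 promoter drives ribosomal protein L10a fused to green fluorescent protein, and tagged ribosomes were pulled down with antibodies to that protein. Cerebella were pooled for each preparation, per the labels; sex and number of animals were not used here. Because one of the 4 genes supplies the promoter of the tag, the amount of tagged ribosomes can itself vary with age, and it was not measured. Unpurified cerebellar RNA was not used here, so a signal is a level in the purified RNA and no enrichment over tissue.

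The 4 proteins have different roles. Pcp2 (also called L7) carries a GoLoco motif, a short sequence that binds alpha subunits of inhibitory G proteins. Pcp4 (also called PEP-19) is a small protein with an IQ motif that binds calmodulin, the main calcium sensor of neurons, and alters how it binds and releases calcium. Ppp1r17 (also called G-substrate) is phosphorylated by the cGMP-dependent protein kinase and then inhibits protein phosphatases 1 and 2A, a route studied in long-term depression at Purkinje cell synapses. Dner is a transmembrane protein with EGF-like repeats on the Purkinje cell body and dendrites, where it acts as a ligand of Notch on neighbouring Bergmann glia. Purkinje cells at birth are already postmitotic and grow their dendritic tree and most of their synapses over the first postnatal weeks. Pcp4 and Dner are also known from other neurons, whereas Pcp2 and Ppp1r17 are more nearly restricted to Purkinje cells within the cerebellum.

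By RefSeq on GRCm38.p6, Pcp2 lies at chr8:3623369-3625547, Pcp4 at chr16:96467606-96525793, Ppp1r17 at chr6:56017497-56032689 and Dner at chr1:84369839-84696221. The 250 bases before the first listed transcript start are shown for the 3 genes matched by symbol in the RefSeq promoter table, because the Pcp2 promoter drives the tag and the other genes differed from Pcp2 in their course. Capitals mark matches to AGGTCA (the core site of nuclear receptors such as Rora) or CAGATG (an E-box), on either strand.
Pcp2 (chr8:3625548-3625797, minus strand): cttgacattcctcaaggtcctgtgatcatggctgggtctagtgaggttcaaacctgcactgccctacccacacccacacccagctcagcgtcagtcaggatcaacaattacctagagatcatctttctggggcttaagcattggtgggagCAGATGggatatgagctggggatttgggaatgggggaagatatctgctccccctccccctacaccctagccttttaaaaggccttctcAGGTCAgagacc
Pcp4 (chr16:96467356-96467605, plus strand): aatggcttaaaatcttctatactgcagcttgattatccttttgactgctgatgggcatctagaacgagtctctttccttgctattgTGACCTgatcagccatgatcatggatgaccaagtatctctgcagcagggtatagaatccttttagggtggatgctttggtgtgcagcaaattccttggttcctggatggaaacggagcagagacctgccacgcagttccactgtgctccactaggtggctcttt
Dner (chr1:84696222-84696471, minus strand): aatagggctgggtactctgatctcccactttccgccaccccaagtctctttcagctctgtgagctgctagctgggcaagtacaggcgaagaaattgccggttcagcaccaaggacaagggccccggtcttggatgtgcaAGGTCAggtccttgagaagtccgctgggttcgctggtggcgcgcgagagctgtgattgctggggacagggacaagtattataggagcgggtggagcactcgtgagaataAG

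AGGTCA occurred in the window of all 3 genes, at bases -12 to -7 from the start of Pcp2, at -164 to -159 on the opposite strand of Pcp4, and at -111 to -106 in Dner, counting the transcript start as 0. A second match in Dner ran from -2 to 3, so its first bases are the capitals at the end of that line. CAGATG occurred in Pcp2 at -100 to -95. Of 32817 mouse promoter windows of 250 bases before and 50 after a start, 16.3% held AGGTCA and 17.2% held CAGATG on either strand. The homeodomain core TAATTA, a second E-box spelled CAGCTG and the TATA box TATAAA were searched in the same way and were not found in the first window of these 3 genes. They occurred in 5.3%, 16.3% and 13.6% of all windows. No searched motif shared bases with another in these windows. Pcp2 has 4 windows in the table for its alternative starts, and the first is printed. AGGTCA was in windows 1, 2 and 4 and CAGATG in windows 1 and 2. In window 2 they lay at -87 to -82 and at -175 to -170. Both were shifted by the same distance from window 1, as when overlapping windows hold the same bases, so these need not be separate sites. Window 3 held TAATTA at -101 to -96 and, on the opposite strand, a TATA box match at -114 to -109. A match is a string of letters and not a bound site.

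Signals are log2 values per probe set as deposited. Array medians were 7.59 to 7.6 at P56 and 7.77 to 7.93 at the other ages, and no batch or scan date was used here. As deposited, the median change of all probe sets was 0.08 for P56 against P0, 0.00 for P56 against P7 and -0.03 for P56 against P21. With array medians set to 0, changes in these comparisons moved up by 0.32, 0.26 and 0.23. The medians of all probe sets became 0.41, 0.27 and 0.21, so this scaling moved them away from 0. The natural gene of the tagged protein, Rpl10a, has 4 probe sets, and the brightest of them averaged 12.69, 13.01, 12.81, 12.62 and 12.54 from P0 to P56. In all, 18018 of 22092 probe sets differed between ages by the moderated F-test of limma, which is 81.6%. All 4 genes were among them, with adjusted p from 6.78e-21 (Ppp1r17) to 2.02e-06 (Pcp4).

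**Figure D1:**
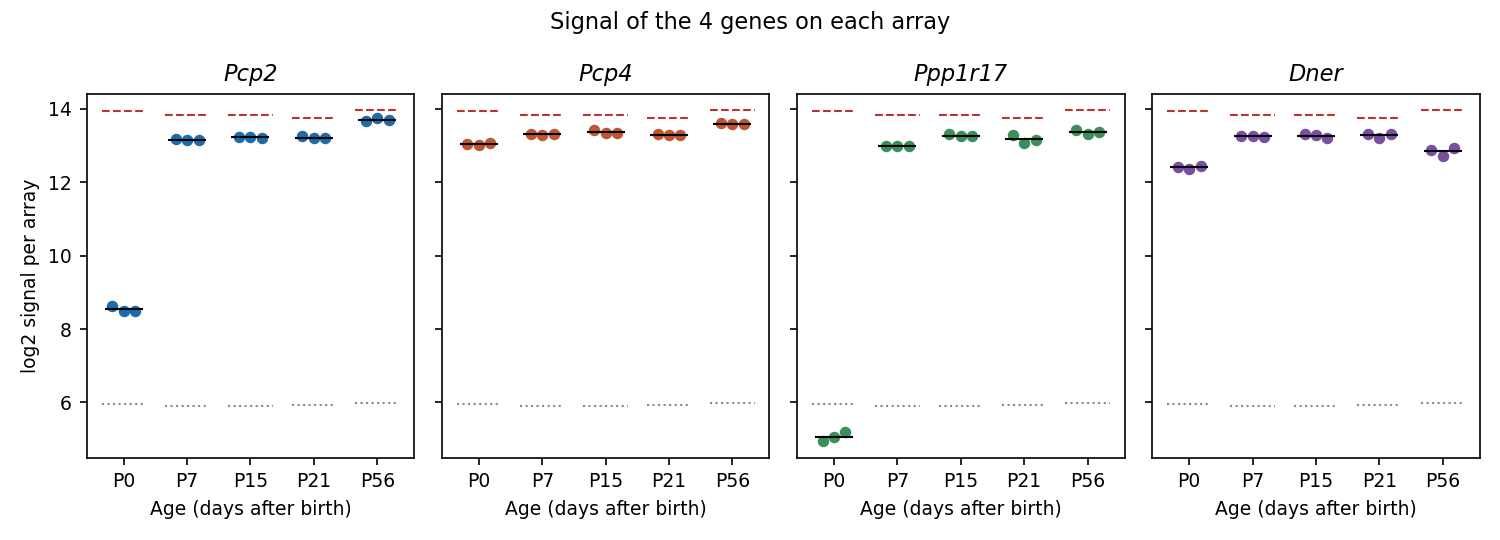
Log2 signal of Pcp2, Pcp4, Ppp1r17 and Dner on each of the 15 arrays, by age. Points are arrays, black bars are age means (n = 3), dotted lines are the mean lower quartile of the arrays and dashed lines the mean of their brightest probe set. Ppp1r17 lies under the lower quartile at P0, and from P7 to P21 all 4 genes lie near the brightest probe set.

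Pcp2 rose in the first week and again between P21 and P56. Its signal was 8.62, 8.49 and 8.50 at P0, 13.18, 13.15 and 13.16 at P7, 13.23, 13.24 and 13.20 at P15, 13.26, 13.20 and 13.20 at P21, and 13.67, 13.75 and 13.69 at P56. The P0 arrays were far below all others, the 9 arrays of P7, P15 and P21 lay together, and the 3 arrays of P56 were above all of these. At P7 it was 24.7-fold higher than at P0 (log2 change 4.63, SE 0.06, adjusted p 2.78e-19 by limma), and 22 of the 19500 genes rose more. At P56 it was 1.40-fold higher than at P21 (0.49, SE 0.06, adjusted p 2.10e-06). The steps P15 against P7 (0.06, 95% interval -0.07 to 0.18) and P21 against P15 (0.00, -0.13 to 0.13) did not pass the test. On the linear scale of the signal, Pcp2 stood at 2.77% of its P56 mean at P0, at 68.6% at P7 and at 71.4% at both P15 and P21.

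Ppp1r17, the phosphatase inhibitor, rose in the first week and was near the top of the scale at every later age. Its signal was 4.94, 5.05 and 5.18 at P0, 13.00, 12.99 and 12.98 at P7, 13.31, 13.25 and 13.25 at P15, 13.29, 13.07 and 13.16 at P21, and 13.43, 13.32 and 13.36 at P56. All 3 values at P0 were under the lower quartile of their arrays (5.93 to 6), so they are not shown to be above background, and neither the size of the rise nor its rank among genes is settled. The deposited values gave a log2 change of 7.93 for P7 against P0 (SE 0.07, adjusted p 1.06e-20 by limma). Set against the lower quartile of the P0 arrays, the P7 mean was higher by 7.02.

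Ppp1r17 was the one gene of the 4 that passed the test between P7 and P15, a step at which 10.4% of probe sets were called higher. It rose by 0.28 (SE 0.07, adjusted p 0.00866), and no P15 array overlapped the P7 arrays. Later steps were small. P21 against P15 was -0.10 (95% interval -0.25 to 0.06, adjusted p 0.432) and P56 against P15 was 0.10 (-0.06 to 0.25, adjusted p 0.268). P56 against P21 was called at 0.20 (SE 0.07, adjusted p 0.03), but this call was lost without P21 replicate 2 (0.15), P21 replicate 3 (0.19) or P56 replicate 1 (0.16). With array medians set to 0 the change was 0.43. The order of means was P56, P15, P21, P7 and P0 from high to low, and neither P56 and P15 nor P15 and P21 differed by the test.

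Pcp4, the calmodulin-binding protein, was bright at birth. Its signal was 13.04, 13.02 and 13.08 at P0, 13.32, 13.29 and 13.32 at P7, 13.43, 13.34 and 13.34 at P15, 13.32, 13.28 and 13.28 at P21, and 13.61, 13.59 and 13.59 at P56. The P0 arrays were below and the P56 arrays above all others, with the P15 arrays just above those of P7 and P21, which overlapped. At P7 it was 1.2-fold higher than at P0 (log2 change 0.27, SE 0.06, adjusted p 4.61e-04 by limma), and at P56 it was 1.23-fold higher than at P21 (0.30, SE 0.06, adjusted p 1.89e-04). With array medians set to 0, that last change was 0.54. At P0 its linear signal was already 68.3% of the P56 mean. P15 against P7 (0.06, 95% interval -0.06 to 0.18), P21 against P15 (-0.08, -0.20 to 0.04) and P21 against P7 (-0.02, -0.14 to 0.10) did not pass the test.

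Dner, the Notch ligand, was highest from P7 to P21 and lower at both ends of the series. Its signal was 12.41, 12.37 and 12.45 at P0, 13.27, 13.27 and 13.23 at P7, 13.32, 13.29 and 13.21 at P15, 13.31, 13.20 and 13.33 at P21, and 12.88, 12.72 and 12.94 at P56. The P56 arrays lay above all P0 arrays and below all arrays of the 3 ages between. At P7 it was 1.80-fold higher than at P0 (log2 change 0.85, SE 0.07, adjusted p 5.13e-09 by limma). At P56 it fell by 0.44 on the log2 scale against P21 (SE 0.07, adjusted p 3.53e-05), to 0.74 times the P21 level, and it stayed above P0 by 0.43 (SE 0.07, adjusted p 1.86e-05).

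The sizes of the Dner values at P56 depend on the scaling of the arrays. With array medians set to 0 the change was -0.20 against P21 (adjusted p 0.0158) and -0.15 against P7, which no longer passed the test (adjusted p 0.0606), and with quantile normalization the values were -0.48 and -0.47. The rise over P0 was 0.76 with array medians set to 0 and 0.23 after quantile normalization. P7, P15 and P21 could not be ordered, with changes of 0.02 (95% interval -0.13 to 0.16) for P15 against P7 and 0.01 (-0.14 to 0.15) for P21 against P15.

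**Figure D2:**
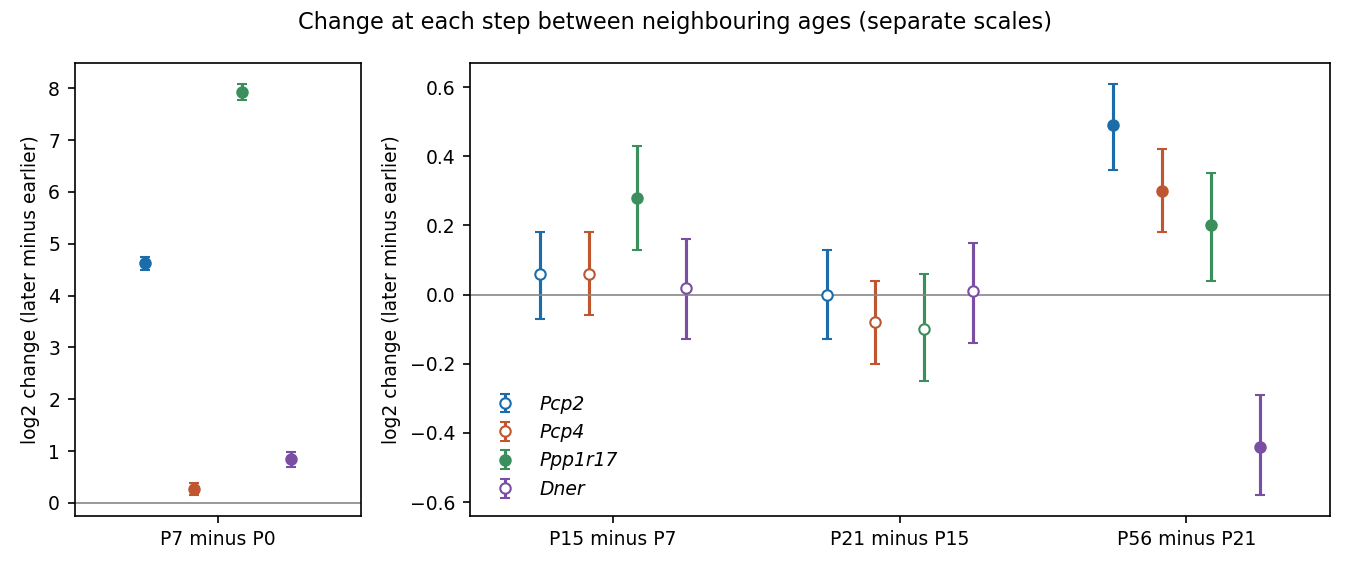
Log2 change at each step between neighbouring ages, later age minus earlier, with 95% intervals from limma (n = 3 per age). The panels have separate scales, and filled points passed an adjusted p of 0.05. Pcp2 changed by 4.63 in the first week. Ppp1r17 is drawn at 7.93, or 7.02 against the P0 lower quartile, and Dner was the one gene of the 4 that fell between P21 and P56.

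Between ages, the 4 genes shared the first step and parted at the last. At P7 all 4 were higher than at P0, against 33.6% of all probe sets, and the arrays of both ages did not overlap for any of them, as for 72.1% of probe sets. At P15 against P7 the arrays did not overlap for 3 of 4, against 45% of probe sets, and 1 of 4 was called. At P21 against P15, 0 of 4 passed the test of limma, where 17.7% of probe sets were called. At this step 0 of 4 had an unadjusted p under 0.05, against 6391 of the 22092 probe sets. Arrays of these ages did not overlap for 1 of 4, Pcp4, against 32.7% of probe sets. At P21 against P7, 0 of 4 passed, against 26.8% of probe sets called. For this comparison 1 of 4, Ppp1r17 (0.18, adjusted p 0.075), had an unadjusted p under 0.05, against 7807 of the 22092 probe sets. At P56 against P21, 3 of 4 were higher and 1 lower, where 22.1% of probe sets were called higher and 34.3% lower, and the arrays did not overlap for any of the 4, as for 54.7% of probe sets. At P56 against P7, 3 of 4 were again called higher and 1 lower, with backgrounds of 25.4% higher and 34.2% lower. At P56 against P15, 2 were higher and 1 lower (23.1% and 32.9% of probe sets). All 4 were higher at P56 than at P0, as were 40.1% of probe sets. All 4 were also higher at P15 and P21 than at P0, against 33.5% and 34.6%.

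Differences between the changes of 2 genes were read within arrays. From P0 to P7, Pcp2 rose by 4.36 more than Pcp4 and by 3.78 more than Dner. Dner in turn rose by 0.58 more than Pcp4. The deposited values of Ppp1r17 gave differences of 3.30 from Pcp2, 7.09 from Dner and 7.67 from Pcp4, but these sizes rest on P0 values not shown to be above background. All 3 would be smaller with the change of 7.02 taken against the lower quartile in place of 7.93. For each of these 6 pairs the within-array differences of the P7 arrays did not overlap those of the P0 arrays, and the exact two-sided permutation test gave 0.1 (0.1 after adjustment over the 6 pairs), the smallest p that 3 against 3 arrays allow. From P21 to P56, Pcp2 changed by 0.92, Pcp4 by 0.74 and Ppp1r17 by 0.63 more than Dner (exact p 0.1, adjusted 0.12), again without overlap. Over the same step Pcp2 changed by 0.18 more than Pcp4 and by 0.29 more than Ppp1r17 (exact p 0.1, adjusted 0.12), while Pcp4 and Ppp1r17 overlapped in their difference of 0.11 (exact p 0.2).

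From P7 on, the 4 genes were among the brightest on the array, where an array's scale may have little room left. At P56, 4 to 8 of the 22092 probe sets were brighter than Pcp2 and 12 to 13 were brighter than Pcp4. The count was 26 to 48 for Ppp1r17 and 137 to 227 for Dner. Pcp2 lay 0.17 to 0.40 below the brightest probe set of its array at P56, and 0.52 to 0.70 below it from P7 to P21. Pcp4 lay within 0.81 to 0.98 of the brightest probe set even at P0, and within 0.32 to 0.56 at later ages. The part of this ceiling in the small changes of Pcp4, and in the flat stretch of all 4 genes from P7 to P21, was not tested.

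The other Purkinje cell markers give the setting for these values. Of 39 listed genes 34 were measured, and at P7 against P0 29 rose and 3 fell, 2 missed the threshold, and the list had a median log2 change of 2.17, against 0.06 over all genes. Pvalb, a calcium buffer, rose by 6.97 (SE 0.07), Gng13, a G protein gamma subunit, by 6.30, and Itpka, a kinase of inositol trisphosphate, by 6.04. Atp2a3, a calcium pump of the endoplasmic reticulum, rose by 5.43, Homer3, a synaptic scaffold, by 4.39, and Kcnab1, a potassium channel subunit, by 4.06. The change of Ppp1r17 against the lower quartile of the P0 arrays, 7.02, has no error of its own. Its order relative to Pvalb is thus not settled. Of the 34 markers, 4 rose more than Pcp2, and 28 rose more than Pcp4 and 28 more than Dner. In P56 against P7 the median of the list was 0.17, with 17 genes higher and 9 lower, or 24 higher and 4 lower with array medians set to 0. As deposited, 25.4% of all probe sets were called higher and 34.2% lower over this interval. With array medians set to 0, all probe sets had a median change of 0.27, and their shares called are not given here.

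Later changes of single markers spanned both directions. Sv2c, a synaptic vesicle protein, rose by 1.07 (SE 0.12) from P7 to P56 after a fall of the same order in the first week (-1.16), and Ebf2, a transcription factor, fell by 0.84. The homeodomain factors Lhx1 and Lhx5 rose by 0.65 and 0.62, and Pcp4l1, the paralog of Pcp4, by 0.63. Pcp2 rose by 0.54 over that interval (0.81 with array medians set to 0), with 5 markers above it. Dner, at -0.41, had 29 markers above it.

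**Figure D3:**
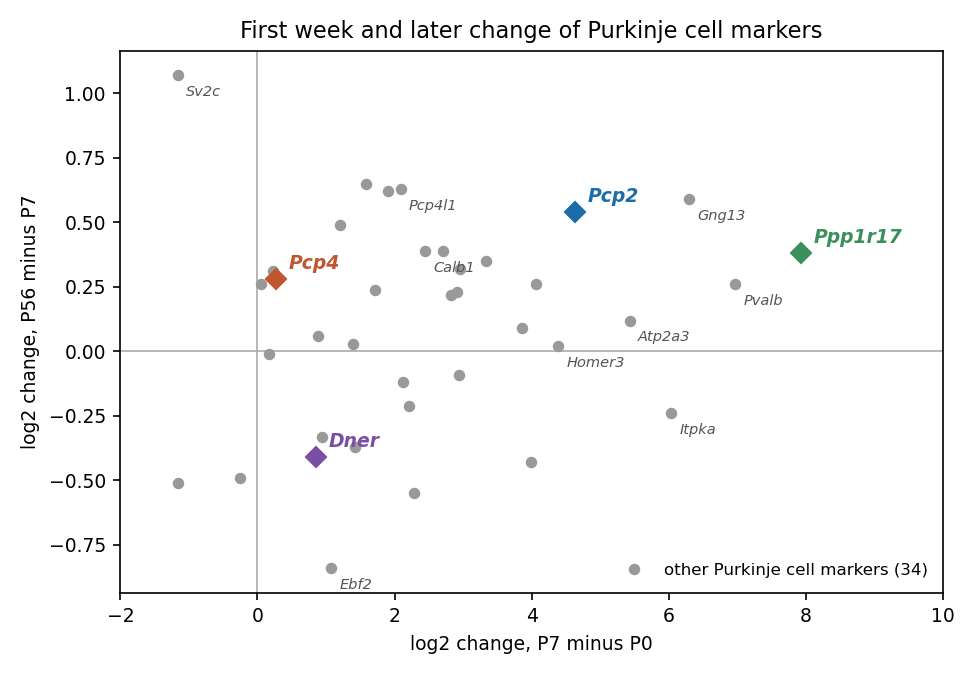
Log2 change in the first week (P7 minus P0, horizontal) against later change (P56 minus P7, vertical) for 34 other Purkinje cell markers (grey) and the 4 genes (diamonds). Ppp1r17 is drawn at its deposited value of 7.93, which is 7.02 against the P0 lower quartile, and Pvalb lies at 6.97. Pcp4 and Dner are near 0 on the horizontal axis at 0.27 and 0.85, and Dner is below 0 on the vertical axis at -0.41.

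Measured against these markers, the 4 genes split. With the mean of the 34 markers set to 0 in each array, Ppp1r17 still rose from P0 to P7, and so did Pcp2, which lay 1.28 to 1.32 above the marker mean at P7 and at -1.02 to -0.92 relative to it at P0. Pcp4 and Dner turned negative, at -2.08 (SE 0.06) and -1.50 (SE 0.07). Their rise in the first week was thus smaller than that of the marker mean. The markers were chosen as genes of mature Purkinje cells, with earlier results of these arrays known, so this scaling has a direction of its own and is no independent measure of capture.

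Markers of other cells moved in the same comparisons. Of all probe sets, 33.6% were called higher and 28.5% lower at P7 against P0. At P7 against P0, 15 of 16 endothelial and microglial markers fell and 1 rose (median -2.02), and their list mean was 6.77 to 6.82 at P7, against 8.6 to 8.7 at P0. Cdh5 of endothelial cells averaged 7.09 at P7 and 10.33 at P0, and C1qb of microglia 7.06 and 9.97. Of 14 interneuron and nuclear neuron markers 11 fell and 1 rose (median -1.43). The list mean was 8.55 to 8.70 at P7, against 9.98 to 9.99 at P0, and Sst averaged 9.46 at P7 and 12.24 at P0. Of 14 astrocyte and Bergmann glia markers 10 fell and 3 rose, with list means of 9.99 to 10.07 at P7 and 10.34 to 10.39 at P0.

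Other lists rose in part. Of 14 granule cell markers 8 rose and 3 fell, with list means of 10.39 to 10.51 at P7 and 9.30 to 9.31 at P0. Gabra6, a GABA receptor subunit of granule cells, averaged 10.73 at P7 and 5.08 at P0. That P0 value lay under the lower quartile of the P0 arrays, so the size of its rise is not settled. Kcnk9 on the same list fell by 2.06. Of 14 oligodendrocyte markers 9 rose and 5 fell, with list means of 9.10 to 9.26 at P7 and 8.09 to 8.23 at P0. Of 13 granule cell progenitor markers 4 rose and 7 fell, and their list means of 8.77 to 8.85 at P7 and 8.78 to 8.82 at P0 overlapped. Genes of other cells thus gave signal beside the Purkinje markers at P0, and also at later ages. At P56 the list means were 10.51 for granule cell, 8.81 for oligodendrocyte and 9.69 for astrocyte and Bergmann glia markers (9.31, 8.16 and 10.36 at P0). Interneuron and nuclear neuron, granule cell progenitor, and endothelial and microglial markers averaged 8.19, 7.02 and 6.56 at P56 (9.98, 8.80 and 8.66 at P0). In these lists 1 of 14, 2 of 13 and 4 of 16 genes lay under the lower quartile at P56 and are not shown to be above background. The granule cell, oligodendrocyte, and astrocyte and Bergmann glia lists had 0 such genes at P56. The part of other cells in the values of Pcp4 and Dner at P0 or later, and the part of a changing capture in the rises of Pcp2 and Ppp1r17, were not tested. In pooled tissue, a larger share of captured RNA from Purkinje cells and more RNA of a gene per Purkinje cell cannot be told apart.

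**Figure D4:**
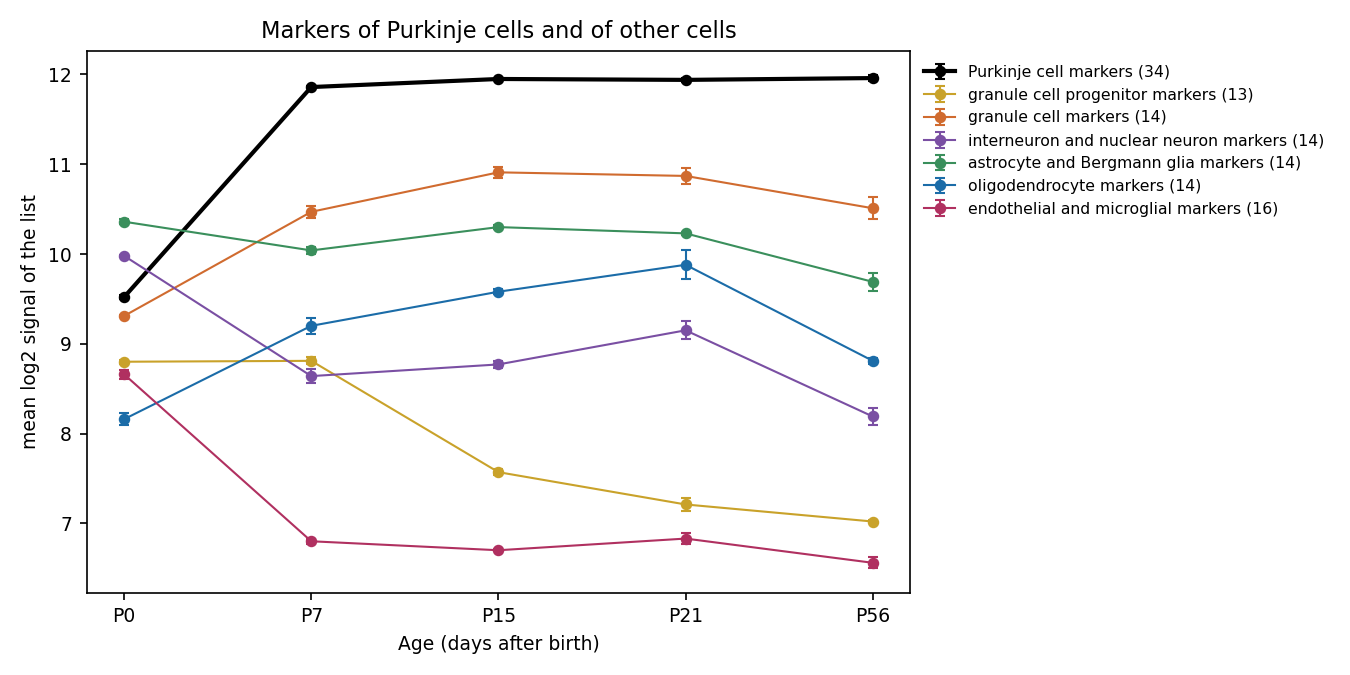
Mean log2 signal of 7 marker lists by age, with the SD over 3 arrays (numbers of genes in brackets). The Purkinje cell list lies at 9.52 at P0 and 11.86 to 11.96 afterwards, while the endothelial and microglial list lies at 8.66 at P0 and 6.56 to 6.83 afterwards. Levels of different lists come from different probes, so only the course of a line can be read.

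Between P21 and P56, where Pcp2 and Pcp4 rose and Dner fell, oligodendrocyte markers fell in 13 of 14 cases with 0 higher, and the list mean was 8.77 to 8.83 at P56, against 9.79 to 10.06 at P21. Interneuron and nuclear neuron markers fell in 9 of 14 cases with 0 higher. Astrocyte and Bergmann glia markers fell in 11 of 14 with 2 higher, and granule cell markers in 7 of 14 with 2 higher. Of 13 granule cell progenitor markers 7 fell and 3 rose, and of 16 endothelial and microglial markers 8 fell and 0 rose. Of all probe sets, 34.3% were called lower and 22.1% higher at this step. The Purkinje marker list averaged 11.94 to 12.00 at P56 and 11.93 to 11.96 at P21, with 12 genes higher and 9 lower. With array medians set to 0, the numbers lower were 13 of 14, 8 of 14, 9 of 14 and 5 of 14 for the first 4 lists in the same order. The numbers higher in these lists were 0, 3, 2 and 3. Progenitor markers then had 2 lower and 5 higher, endothelial and microglial markers 4 lower and 3 higher, and 21 Purkinje markers were higher and 3 lower. At that scaling all probe sets had a median change of 0.21, and their shares called are not given here. The part of other cells in the fall of Dner was not tested.

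Genes of the signalling around each of the 4 proteins were read beside the 33.6% of probe sets called higher and 28.5% called lower at P7 against P0. Around Pcp2, 4 of 16 genes of G protein signalling rose and 6 fell at P7 against P0, 6 missed the threshold and the list median was 0.02. Gnai1, an inhibitory alpha subunit, rose by 1.01 (SE 0.06) while its relatives Gnai2 and Gnai3 fell by 0.97 and 0.48. Gnao1, the alpha subunit abundant in brain, had 13.39 at P7 and 13.37 at P0 and was not called. Gng13, which is on the Purkinje marker list too, was the largest rise, and Gnb5, the beta subunit that pairs with RGS proteins, rose by 1.16. Gpsm1, another GoLoco protein, fell by 0.90, and Rgs12, which carries an RGS domain and a GoLoco motif, fell by 1.21.

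Around Pcp4, 9 of 16 genes of calmodulin signalling rose and 5 fell in the first week, 2 missed the threshold and the list median was 0.37. Pcp4l1 rose by 2.09 (SE 0.07) and is on the Purkinje marker list too. The kinases Camk2a, Camkk2 and Camk4 rose by 1.61, 1.32 and 1.15. Gap43, an IQ-motif protein of growing axons, fell by 2.20, and Marcks, a calmodulin-binding protein of the cell cortex, fell by 1.27. Calmodulin gene Calm2 had 13.83 at P56 and 13.23 at P7 (0.60, SE 0.06). Over the same interval Marcksl1, Marcks and Nrgn, the last an IQ-motif protein of forebrain neurons, fell by 3.70, 2.32 and 2.00.

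Around Ppp1r17, 12 of 17 genes of cGMP signalling and protein phosphatases rose and 2 fell in the first week, 3 missed the threshold and the list median was 0.57. The inhibitor Ppp1r1b, known as DARPP-32 in striatal neurons, averaged 12.06 at P7 and 7.79 at P0, a change of 4.27 (SE 0.08). The cGMP phosphodiesterases Pde5a and Pde9a rose by 3.61 and 1.96. Prkg1, the kinase that phosphorylates Ppp1r17, rose by 1.30 in the first week and by a further 1.22 from P7 to P56 (SE 0.08). Gucy1b1, a subunit of the guanylate cyclase that makes cGMP, rose by 1.16 and then fell by 0.95 from P7 to P56. Its partner subunit Gucy1a1 fell by 0.29 and 0.81 over these intervals. Of the catalytic subunits of the target phosphatases, Ppp1ca rose by 0.86, Ppp2cb by 0.57 and Ppp2ca by 0.22 in the first week, the last not called after quantile normalization (0.08). The phosphatase inhibitors Ppp1r1a and Ppp1r14c fell by 2.28 and 1.78 from P7 to P56.

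Around Dner, a list of Notch pathway genes that also holds Ptprz1, Ptn and Mdk was read. Of its 25 measured genes 20 fell and 2 rose in the first week, 3 missed the threshold and the list median was -0.87. The receptors Notch1, Notch2 and Notch3 fell by 1.99, 1.74 and 1.27. Of the ligands, Jag1 fell by 1.60, Jag2 by 1.44 and Dll1 by 0.87, and the related Dlk1 fell by 2.25. Ptprz1, a receptor phosphatase of glia, fell by 3.12 (SE 0.11), and its ligand Ptn fell by 2.02. The target genes Hey1 and Hey2 rose by 0.63 and 0.43, Hes5 fell by 0.73, and Hes1 was not called (-0.07). Glial and endothelial markers fell over the same week, as given above, and their part in these falls was not tested. From P7 to P56, 20 of the 25 genes were lower, or 11 with array medians set to 0 and 14 after quantile normalization. As deposited, 34.2% of all probe sets were called lower over that interval. Their shares at the other scalings are not given here, so the counts of 11 and 14 have no background beside them.

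Genes with courses most like each of the 4 were ranked by Pearson r over the 15 arrays, among genes whose age means spanned at least 0.5 times the range of that gene. These r are descriptions across arrays that fall into age groups. Nearest to Pcp2 were Inpp5a, an inositol phosphatase, Gng13, H4c8, Atp6ap1l and Prmt8, with r of 0.998 to 0.999. Nearest to Ppp1r17 were Pvalb, Kcnab1, Smpx, Homer3 and Gng13, all at 0.999. In all, 295 of 852 candidates had r over 0.9 with Pcp2, 47 of 123 with Ppp1r17, 659 of 14429 with Pcp4 and 1018 of 12150 with Dner.

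Nearest to Pcp4 were Sf3b6, a splicing factor, Znhit1, Lamtor2, Cox17, a mitochondrial copper chaperone, and Anapc13, with r of 0.985 to 0.987. Their ranges of age means, 1.29 to 6.04, were larger than the 0.55 of Pcp4. Nearest to Dner were Mrpl16, a mitochondrial ribosomal protein, Manf, Clstn3, a synaptic adhesion protein, Ckmt1, a mitochondrial creatine kinase, and Ptdss2, with r of 0.984 to 0.986. Clstn3, for example, averaged 11.60 at P0, 12.65 at P7, 12.73 at P15, 12.76 at P21 and 12.30 at P56.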

How the data were processed

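Each array holds ribosome-bound RNA from pooled cerebella, amplified and labelled with biotin, per the labels' protocols. The authors deposited log2 signals that they had normalized for each probe set with Affymetrix Power Tools, per the submitters' processing notes. No source used here gives the algorithm, the version or the log base, and base 2 was read from the range of the values. Probe sets were named from the platform annotation of 2016: 20996 had 1 symbol, 91 several and 1005 were not listed. Each gene was read by its brightest probe set on average.

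All 22092 probe sets were fitted with limma 3.58.1 in R 4.3.3, with a mean per age, 10 residual degrees of freedom and 6.5 from the prior. P-values were two-sided and adjusted by Benjamini-Hochberg within each comparison, and calls used an adjusted p under 0.05. The fit was also run on simulated arrays with independent noise. These hold no shared array effect, so they cannot judge the p-values given here. Means carry the SD over 3 arrays where given, changes the SE of the fit. Whether the 3 arrays per age stem from different pools of cerebella is unstated, so p-values may measure technical spread only. The number of arrays limits the precision. Lists got no test. The 4 genes and the 11 lists were chosen with earlier results of these data known. Named list genes were taken from the up to 6 largest called changes of a list for P7 against P0 and for P56 against P7, and the genes of like course from the 5 highest r, leaving aside olfactory and vomeronasal receptors, predicted genes and transcripts with no name; Gnao1, Ppp1ca, Ppp2cb, Ppp2ca, Notch3, Jag2, Dll1, Hey2, Hes5 and Hes1 were added for their roles after values were seen. Promoter sequences are from RefSeq (GRCm38.p6). Figures were drawn with matplotlib 3.10.9.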

Additional observations from a re-analysis of the deposited data

How the results depend on the processing

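Of 40 results (4 genes in 10 comparisons), all kept direction and call with 1 probe set per gene, with probe sets averaged per gene and with a replicate block. Each of the 4 genes has 1 probe set, and every age holds the same replicate numbers. None of these settings can therefore move the size or sign of a change, and only the calls could differ. With the replicate block, Ppp1r17 was thus at 0.20 for P56 against P21 and Dner at -0.44, as in the main fit. Deviations of same-numbered arrays correlated at -0.31 to 0.45 over 30 pairs (median -0.00), 5 of them over 0.1. Other pairs of arrays across ages correlated at -0.42 to 0.24 over 60 pairs (median 0.00), 10 of them over 0.1. The medians thus show no general pairing by number. The highest value was nevertheless between same-numbered arrays, and arrays per age are few, so pairing at some ages is not excluded. Among changes that were not called, signs turned with quantile normalization for P15 against P7 in Pcp2 (-0.01), Pcp4 (-0.02) and Dner (-0.06), and with array medians set to 0 in Pcp2 (-0.04) and Dner (-0.03) for P21 against P15 and Pcp4 (0.01) for P21 against P7. Array medians at 0 also ended the call of Dner for P56 against P7 (-0.15) and called Ppp1r17 for P56 against P15 (0.29) and P21 against P7 (0.21). Ppp1r17 for P21 against P7 was also called with a trended and robust prior (0.18), with array weights (0.21) and without the dimmest 50% of probe sets (0.18), and array weights ended its call for P56 against P21 (0.16).

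With the mean of the other Purkinje cell markers set to 0, Pcp4 was at -2.08, -2.12, -2.18 and -1.90 for P7, P15, P21 and P56 against P0, and Dner at -1.50, -1.58, -1.55 and -2.01. The same setting gave Pcp2 -0.03, Pcp4 -0.03, Dner -0.07 and Ppp1r17 0.19 (call ended) for P15 against P7, Pcp2 -0.02 and Dner -0.05 for P21 against P7, and Ppp1r17 0.17 (call ended) for P56 against P21. It called 21927, 21905 and 21920 probe sets for P7, P15 and P21 against P0, since it subtracts a rise from every probe set. Without the dimmest 50%, fewer probe sets were tested and 9690, 8516, 9350 and 9329 were called for P56 against P0, P56 against P7, P15 against P0 and P21 against P0.

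Leaving out each array in turn moved Dner between -0.01 and 0.05 for P15 against P7, between -0.02 and 0.05 for P21 against P15 and between -0.00 and 0.06 for P21 against P7, and Pcp2 between -0.02 and 0.01 for P21 against P15, so the sign of each of these uncalled changes turned. It moved Ppp1r17 between 0.15 and 0.25 for P56 against P21, where 3 of 15 omissions ended the call, and between 0.13 and 0.23 for P21 against P7, called only without P21 replicate 2. Apart from the marker scaling given above, the cause of these moves was not tested. The lower quartile of the arrays stands in for a background level, which limits what can be said of Ppp1r17 at P0.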
